A study of Mus musculus with 4 samples.

Results

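Insulin-like growth factor 1 (Igf1), its receptor (Igf1r), 6 IGF binding proteins and the 2 pappalysins (Pappa and Pappa2) were followed in mesenchymal cells. The cells had received control siRNA or DNMT1 siRNA, without or with osteoblast (OB) induction. The binding proteins were Igfbp2, Igfbp3, Igfbp4, Igfbp5, Igfbp6 and Igfbp7. These 10 genes, of 54532 in the count table, were selected by name as members of the IGF axis, with their counts in these same libraries already known. The fold changes below are therefore a description of the chosen genes and not a test of the family. Of the 10 genes, 9 had a mean of at least 1 CPM (a count relative to its library's size) over the libraries, as did 13233 of all genes, and Igfbp6 did not.

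Messenger RNA was sequenced in C3H10T1/2, an established line of mouse mesenchymal stem cells able to enter the bone, cartilage, fat and muscle lineages. The group called control received a control siRNA for 48 h and no induction, and the group called siDNMT1 received an siRNA against DNMT1, a maintenance methyltransferase of DNA, also without induction. The group called OB received the control siRNA and then 3 days of induction with L-ascorbic acid at 50 μM, β-glycerophosphate at 10 mM and dexamethasone at 0.001 μM, and the group called siDNMT1_OB received the DNMT1 siRNA and the same induction. All 4 groups came from the 1 cell line, were transfected with an siRNA and had 1 library each. Differences between groups could therefore not be checked against replicates and carry no p-value. The harvest time of the uninduced cells was not stated. Every difference given below for induction may therefore include a difference in time in culture or since transfection, which was not tested.

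IGF1 binds the receptor IGF1R, which signals for growth, survival and differentiation in cells of the bone lineage. Most IGF in the extracellular space is held by IGF binding proteins, which limit its access to the receptor or carry it to the matrix, and pappalysins are secreted metalloproteinases that cleave some of these proteins and so release IGF. PAPP-A, the product of Pappa, cleaves IGFBP4 and, among others, IGFBP5, whereas PAPP-A2, the product of Pappa2, cleaves IGFBP3 and IGFBP5. In bulk RNA, fewer cells that express a gene and less RNA per cell cannot be told apart, and transcript counts do not measure the secreted proteins or their cleavage.

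The libraries held 22296046 to 27367792 gene counts, and a count of 3, used as the detection floor, equalled 0.111 to 0.133 CPM. As a check of the labels, Dnmt1 (chromosome 9, 20907209 to 20959888) had 7195 counts in control and 3375 in siDNMT1, against 1931 in OB and 2492 in siDNMT1_OB. With DNMT1 siRNA the level was lower without induction (log2 fold change −1.01), but not in siDNMT1_OB, as that library is labelled, against OB (0.13). Throughout, siDNMT1_OB stands for the library so labelled. Other genes do not check the label, since those named here were chosen with their values known. Some had the same direction with DNMT1 siRNA without and with induction (Igfbp3 with −2.42 and −2.06, Pappa2 with 1.79 and 3.16). Others had opposite directions (Spp1 with −1.41 and 0.54, Igfbp4 with 0.49 and −0.96). The paper reports DNMT1 depletion by western blotting in cells induced for longer than these, and higher H19 by RT-qPCR after DNMT1 depletion. In these libraries H19 had 2 counts in control and 11 in siDNMT1, against 17 in OB and 117 in siDNMT1_OB. Of 12 mesenchymal markers, 11 or 12 reached 1 CPM in every library, whereas of 8 osteoblast markers 3 or 4 did, with a summed level between 291 and 636 CPM. Alpl had at most 2 counts, Bglap at most 3, Sp7 at most 8 and Ibsp at most 17 in any library, whereas Runx2 stood at 72.7 to 96.0 CPM, Spp1 at 187 to 548 CPM and Dmp1 at 0.354 to 2.95 CPM. Phex was highest in OB, as Igfbp5 was (9.44 CPM in control and 4.53 in siDNMT1, against 30.4 in OB and 6.28 in siDNMT1_OB), whereas Spp1, Dmp1 and Runx2 were lowest in OB. The part of these marker differences in the results below was not tested. Of 7 blood, endothelial and epithelial markers, none reached 1 CPM in any library, 5 or 6 were at or under the floor, and their summed level lay between 0.663 and 1.44 CPM.

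The 4 genes that differed by at least 1 on the log2 scale between siDNMT1_OB and OB were Igfbp2, Igfbp3, Igfbp5 and Pappa2, and their upstream sequences are shown because DNMT1 acts on CG dinucleotides. Each is the 250 bases before the RefSeq start (GRCm38.p6), 5′ to 3′ on the gene's own strand, with every CG in capitals. Igfbp2 is read at chr1:72824230-72824479 on the plus strand. Igfbp5 is read at chr1:72874866-72875115, Igfbp3 at chr11:7213924-7214173 and Pappa2 at chr1:158958176-158958425, all on the minus strand.
Igfbp5: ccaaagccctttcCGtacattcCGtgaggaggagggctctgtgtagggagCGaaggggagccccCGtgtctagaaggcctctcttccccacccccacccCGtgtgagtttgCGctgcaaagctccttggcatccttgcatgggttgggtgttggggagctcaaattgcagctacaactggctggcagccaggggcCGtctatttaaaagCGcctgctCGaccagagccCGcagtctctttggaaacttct
Pappa2: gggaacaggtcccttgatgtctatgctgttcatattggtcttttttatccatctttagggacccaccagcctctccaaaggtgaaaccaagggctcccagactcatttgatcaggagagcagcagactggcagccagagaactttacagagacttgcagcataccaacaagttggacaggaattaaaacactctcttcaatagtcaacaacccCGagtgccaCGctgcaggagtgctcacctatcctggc
Igfbp2: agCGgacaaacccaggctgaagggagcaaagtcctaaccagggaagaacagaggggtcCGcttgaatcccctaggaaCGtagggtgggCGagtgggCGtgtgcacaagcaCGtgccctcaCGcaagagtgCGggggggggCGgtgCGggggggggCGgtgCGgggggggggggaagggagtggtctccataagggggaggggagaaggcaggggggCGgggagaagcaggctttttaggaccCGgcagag
Igfbp3: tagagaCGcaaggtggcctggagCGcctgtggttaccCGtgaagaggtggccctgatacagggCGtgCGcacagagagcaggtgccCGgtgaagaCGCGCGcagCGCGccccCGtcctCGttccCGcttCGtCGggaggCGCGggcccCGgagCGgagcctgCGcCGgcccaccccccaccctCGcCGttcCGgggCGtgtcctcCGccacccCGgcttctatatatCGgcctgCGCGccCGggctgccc
The sequences differed in CG content. The Igfbp3 window held 32 CG, as many as or more than 96.0% of the 32851 windows of all genes, and the Igfbp2 window held 14. The Igfbp5 window held 10 CG and the Pappa2 window held 2, against a median of 6 and quartiles of 2 and 16 over all windows.

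A window was found for 9 of the 10 genes, of which Igfbp2 has another start downstream. Igf1 had 5 CG in its window, Igfbp6 had 7, Igfbp4 had 22, Igfbp7 had 26 and Igf1r had 42. The letters TATAAA, searched on both strands and present in 12.4% of all windows, were found 28 bases before the start of Igfbp4 and, on the opposite strand, in the window of Igfbp6. The letters AGAACA, only a part of the element bound by the glucocorticoid receptor, were searched on both strands because dexamethasone was in the induction medium. They occurred in 16.1% of all windows and, among these genes, in the first window of Igfbp2. These letter matches say nothing of binding or methylation. The deposited Pappa2 gene extends upstream of the RefSeq start, so that this window lies within the deposited gene span. The same holds for the Igf1 window (87860861 to 87861110) and for the window of the downstream Igfbp2 start. The Igfbp5 window overlaps the deposited gene, which ends at 72874884.

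Igf1 encodes the ligand. It had 184 counts in control and 231 in siDNMT1, and 1169 in OB and 819 in siDNMT1_OB, which corresponded to 6.78, 9.02, 51.7 and 30.6 CPM. Both induced libraries were above both uninduced ones. Igf1 was 7.54-fold higher in OB than in control (log2 fold change 2.92, 95% counting interval 2.70 to 3.16) and 3.37-fold higher in siDNMT1_OB than in siDNMT1 (1.75, 1.55 to 1.98). Counting intervals of levels, fold changes and ratios are exact, those of differences between fold changes and of changes in a ratio are normal approximations, and all cover counting error only, not the variation between cultures. With DNMT1 siRNA, Igf1 was slightly higher without induction (0.41, 0.12 to 0.70) and lower with induction (−0.75, −0.89 to −0.63), both short of a log2 fold change of 1. The gene lies on chromosome 10 (87858265 to 87937042, plus strand, GRCm38), and the antisense gene Igf1os that overlaps its span shares no exonic base with it and had at most 5 counts.

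Igf1r, the receptor, took the opposite direction from its ligand during induction. It had 6495 counts in control and 5758 in siDNMT1, against 3293 in OB and 4076 in siDNMT1_OB, or 239, 225, 146 and 152 CPM. The induced libraries were lower than the uninduced ones, by −0.72 (−0.78 to −0.66) with control siRNA and −0.56 (−0.62 to −0.50) with DNMT1 siRNA. The differences with DNMT1 siRNA were small, at −0.09 without induction and 0.06 with it. Compared per kilobase of exon, which allows levels of different genes to be set side by side, the ratio of Igf1 to Igf1r transcripts was 0.0480 in control and 0.0680 in siDNMT1, and 0.602 in OB and 0.341 in siDNMT1_OB. Per kilobase of deposited exon length, Igf1r thus stood above the ligand in every library, and least so in OB. That length need not be the length of the transcripts expressed, and the counting intervals do not cover this. Igf1r lies on chromosome 7 (67952827 to 68233668, plus strand).

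**Figure D1:**
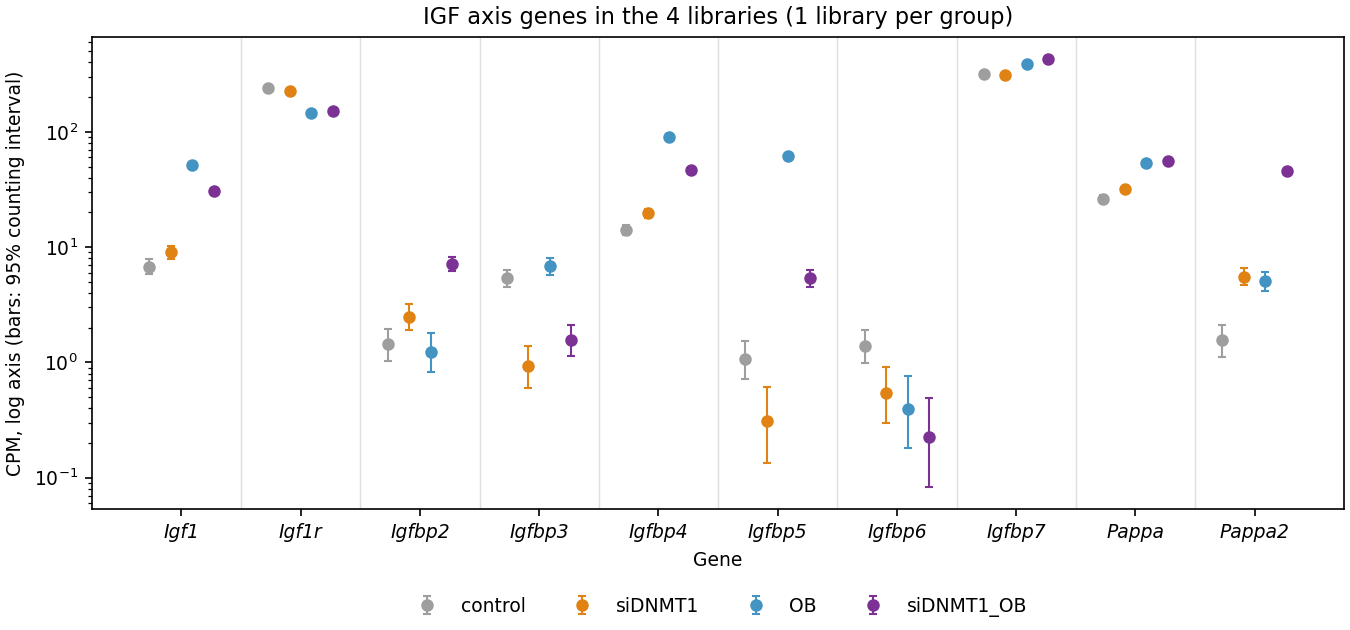
CPM of the 10 IGF axis genes in each of the 4 libraries, on a log axis, with 95% counting intervals as bars and 1 library per group. Igfbp5 stands at 62.3 CPM in OB and at or below 5.34 CPM in the other libraries, and Pappa2 at 46.1 CPM in siDNMT1_OB and at or below 5.54 CPM in the others.

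Among the binding proteins, Igfbp5 had the widest range. IGFBP5 binds IGFs, is deposited in bone matrix and has effects of its own on osteoblasts. Igfbp5 had 29 counts in control and 8 in siDNMT1, against 1409 in OB and 143 in siDNMT1_OB, which corresponded to 1.07, 0.312, 62.3 and 5.34 CPM. OB stood far above the other libraries, and the siDNMT1 library was the lowest and below 1 CPM. The gene was 54.4-fold higher in OB than in control (log2 fold change 5.76, 5.34 to 6.45) and 13.9-fold higher in siDNMT1_OB than in siDNMT1 (3.80, 3.08 to 5.34). With DNMT1 siRNA, Igfbp5 was 2.94-fold lower without induction (−1.55, −3.12 to −0.61) and 11.5-fold lower with induction (−3.52, −3.80 to −3.29). Of the 13233 genes compared, 1 had a lower fold change than Igfbp5 between siDNMT1_OB and OB. The 8 counts in siDNMT1 leave the change without induction imprecise, whereas the change with induction rests on 143 and 1409 counts. Fold changes here and elsewhere include an added prior count of 2, which the CPM values and the intervals do not. The fold changes are therefore smaller than the CPM values give, most so at few counts.

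Igfbp2 is the neighbour of Igfbp5. Igfbp2 lies at chromosome 1, 72824503 to 72852474 on the plus strand, and Igfbp5 at 72857932 to 72874884 on the minus strand, so that their 3′ ends face each other across 5457 bases. IGFBP2 binds IGF1 and IGF2 and is among the main IGF binding proteins of serum. It had 39 counts in control and 64 in siDNMT1, and 28 in OB and 191 in siDNMT1_OB, or 1.44, 2.50, 1.24 and 7.14 CPM. The highest level was thus in siDNMT1_OB and the lowest in OB, the library in which Igfbp5 was highest. Igfbp2 was 5.48-fold higher in siDNMT1_OB than in OB (2.45, 1.95 to 3.15) and 2.80-fold higher than in siDNMT1 (1.49, 1.10 to 1.95). OB against control gave −0.20, with an interval from −0.97 to 0.52, and siDNMT1 against control gave 0.76 (0.20 to 1.41). Per kilobase, the ratio of Igfbp2 to Igfbp5 was 4.37 in control and 26.0 in siDNMT1, against 0.0646 in OB and 4.34 in siDNMT1_OB.

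Igfbp3, which encodes the main carrier of IGFs in the circulation, was low with DNMT1 siRNA whether or not the cells were induced. It had 145 counts in control and 24 in siDNMT1, and 154 in OB and 42 in siDNMT1_OB, or 5.35, 0.937, 6.81 and 1.57 CPM. Both libraries with DNMT1 siRNA were below both with control siRNA. Igfbp3 was 5.34-fold lower without induction (−2.42, −3.20 to −1.88) and 4.18-fold lower with induction (−2.06, −2.65 to −1.62). In each of these comparisons it was the 7th lowest of the 13233 genes by fold change. Induced against uninduced cells gave 0.34 (0.01 to 0.69) with control siRNA and 0.70 (−0.01 to 1.53) with DNMT1 siRNA. Igfbp3 lies on chromosome 11 (7206086 to 7213923, minus strand).

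Igfbp4, whose product is an inhibitor of IGF action and a substrate of PAPP-A, was higher after induction. Igfbp4 had 381 counts in control and 505 in siDNMT1, against 2044 in OB and 1239 in siDNMT1_OB, or 14.0, 19.7, 90.4 and 46.3 CPM. This order of the libraries was also that of Igf1. Igfbp4 was 6.40-fold higher in OB than in control (2.68, 2.53 to 2.85) and 2.34-fold higher in siDNMT1_OB than in siDNMT1 (1.23, 1.08 to 1.38). With DNMT1 siRNA it was higher without induction (0.49, 0.29 to 0.68) and lower with it (−0.96, −1.07 to −0.86), the latter just short of the size at which a gene was counted as changed. Igfbp4 lies on chromosome 11 (99041244 to 99054392, plus strand).

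Igfbp6 had few counts and Igfbp7 many. Igfbp6, whose product prefers IGF2, had 38 counts in control and 14 in siDNMT1, and 9 in OB and 6 in siDNMT1_OB, and was under 1 CPM in 3 libraries. It was lower in siDNMT1 (−1.24, −2.36 to −0.44) and in OB (−1.63, −3.05 to −0.74) than in control. The intervals included 0 for siDNMT1_OB against OB (−0.65, −2.60 to 0.83) and against siDNMT1 (−1.05, −2.95 to 0.18), differences not detectable at this depth. Igfbp6 is left out of the counts of changed genes, since its mean was below 1 CPM. Igfbp7, which encodes a secreted matrix protein with low affinity for IGFs, had 8566, 7892, 8771 and 11427 counts in control, siDNMT1, OB and siDNMT1_OB, or 316, 308, 388 and 427 CPM. It was the most abundant of the 10 genes per kilobase in every library and differed little between them, with log2 fold changes from −0.04 to 0.47. Igfbp7 shares 85 exonic bases with Polr2b on the opposite strand, and the use of strand in the counting was not stated. Igfbp6 lies on chromosome 15 (102144362 to 102149511, plus strand) and Igfbp7 on chromosome 5 (77349240 to 77408041, minus strand).

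Summed per kilobase, Igfbp2 to Igfbp6 reached 7.11 CPM per kilobase in control and 6.66 in siDNMT1, against 34.0 in OB and 15.9 in siDNMT1_OB. Igfbp4 held the greatest share in each library, from 44.8% in control to 67.0% in siDNMT1. The other shares changed place between libraries. Igfbp3 held 24.0% of the sum in control and 4.49% in siDNMT1, and 6.39% in OB and 3.15% in siDNMT1_OB. Igfbp5 held 2.51% in control and 0.781% in siDNMT1, against 30.5% in OB and 5.58% in siDNMT1_OB. Igfbp2 held 11.0% and 20.3% in control and siDNMT1, and 1.97% and 24.2% in OB and siDNMT1_OB. The gene ranked next to Igfbp4 was therefore Igfbp3 in control, Igfbp2 in siDNMT1, Igfbp5 in OB and Igfbp2 again in siDNMT1_OB.

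**Figure D2:**
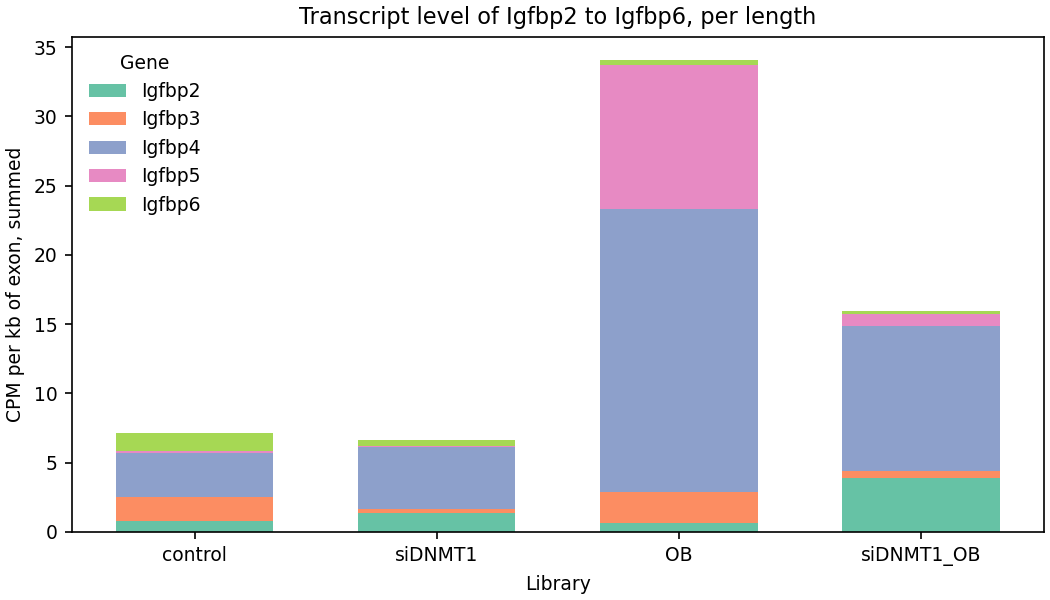
Level of Igfbp2 to Igfbp6 in each library in CPM per kilobase of exon, stacked by gene from 0, with 1 library per group. The sum is 34.0 in OB and 15.9 in siDNMT1_OB, and Igfbp5 accounts for 30.5% of it in OB and 5.58% in siDNMT1_OB.

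The pappalysins differed from each other. Pappa had 711 counts in control and 818 in siDNMT1, and 1222 in OB and 1481 in siDNMT1_OB, or 26.2, 31.9, 54.0 and 55.3 CPM. It was higher after induction, by 1.04 (0.91 to 1.18) with control siRNA and 0.79 (0.67 to 0.92) with DNMT1 siRNA, and differed little with DNMT1 siRNA (0.28 without induction and 0.03 with it). Pappa lies on chromosome 4 (65124174 to 65357509, plus strand).

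Pappa2 had 42 counts in control and 142 in siDNMT1, against 115 in OB and 1233 in siDNMT1_OB, or 1.55, 5.54, 5.09 and 46.1 CPM. DNMT1 siRNA and induction each went with a higher level, the 2 single conditions had overlapping intervals, and the combination stood above all the other libraries. Pappa2 was 3.46-fold higher in siDNMT1 than in control (1.79, 1.33 to 2.37) and 8.94-fold higher in siDNMT1_OB than in OB (3.16, 2.90 to 3.47), the latter the 4th highest of the 13233 genes. Induction gave 3.17-fold (1.67, 1.19 to 2.26) with control siRNA and 8.21-fold (3.04, 2.80 to 3.32) with DNMT1 siRNA. The share of Pappa2 in the pappalysin transcripts, per kilobase, was 5.95% in control and 15.7% in siDNMT1, and 9.16% in OB and 47.1% in siDNMT1_OB. Pappa2 lies on chromosome 1 (158711727 to 158980490, minus strand), on the chromosome of Igfbp2 and Igfbp5 but far from them, and shares 310 exonic bases with a long noncoding RNA gene, 1600012P17Rik, that had at most 1 count.

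Igfbp5 was then set against Pappa2, since its product is a substrate of PAPP-A2. Per kilobase, Igfbp5 stood at 0.178, 0.0520, 10.4 and 0.890 CPM in control, siDNMT1, OB and siDNMT1_OB, and Pappa2 at 0.150, 0.538, 0.494 and 4.48. The ratio of Igfbp5 to Pappa2 was 1.18 in control (0.711 to 1.95) and 0.0966 in siDNMT1 (0.0409 to 0.195), against 21.0 in OB (17.4 to 25.6) and 0.199 in siDNMT1_OB (0.166 to 0.237). Igfbp5 was thus the more abundant transcript in OB, Pappa2 the more abundant in both libraries with DNMT1 siRNA, and in control the interval included a ratio of 1. With DNMT1 siRNA the ratio was 12.3-fold lower without induction (5.21 to 28.8) and 106-fold lower with induction (81.7 to 137). In induced against uninduced cells the ratio was 17.7-fold higher with control siRNA (10.7 to 29.5). With DNMT1 siRNA it was 2.06-fold higher, and the interval (0.989 to 4.28) included no change. Igfbp5 was lower and Pappa2 higher with DNMT1 siRNA, and both were higher with induction.

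For the other substrate of PAPP-A2 in this set, the ratio of Igfbp3 to Pappa2 was 11.4 in control and 0.556 in siDNMT1, against 4.40 in OB and 0.112 in siDNMT1_OB. It was therefore also below 1 in both libraries with DNMT1 siRNA and above 1 in both with control siRNA. For PAPP-A, the ratio of Igfbp4 to Pappa was 1.34, 1.54, 4.18 and 2.09 in the same order. It was above 1 in every library, differed little with DNMT1 siRNA without induction (1.15-fold higher, 0.975 to 1.36) and was 2.00-fold lower with DNMT1 siRNA after induction (1.80 to 2.22). A ratio of transcripts is not a ratio of enzyme to substrate protein, which was not measured here.

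**Figure D3:**
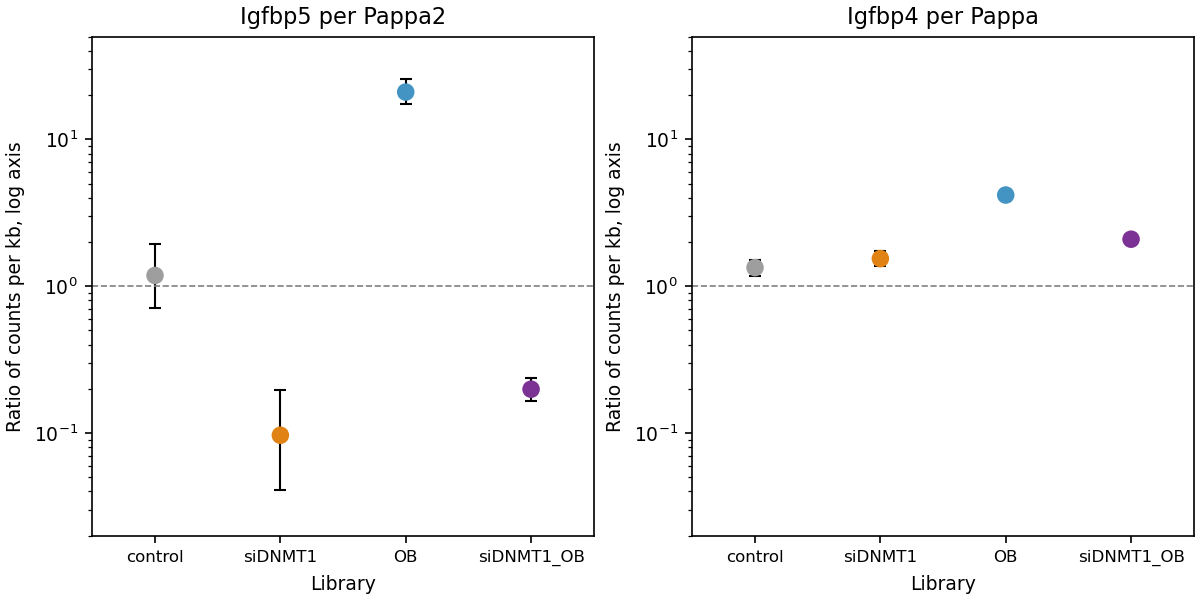
Ratio of Igfbp5 to Pappa2 (left) and of Igfbp4 to Pappa (right) in each library, per kilobase of exon, on a log axis, with 95% counting intervals as bars and a dashed line at 1. Igfbp5 to Pappa2 ranges from 0.0966 in siDNMT1 to 21.0 in OB, and Igfbp4 to Pappa from 1.34 in control to 4.18 in OB.

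Counted at a log2 fold change of at least 1 in size, the comparison of siDNMT1 with control had 1 member higher (Pappa2), against 1.97% of all genes compared, and 2 lower (Igfbp3 and Igfbp5), against 1.37%. The comparison of siDNMT1_OB with OB had 2 higher (Igfbp2 and Pappa2), against 2.36%, and 2 lower (Igfbp3 and Igfbp5), against 1.37%. Between OB and control, 5 were higher (Igf1, Igfbp4, Igfbp5, Pappa and Pappa2), against 10.6%, and 0 were lower, against 7.1%. Between siDNMT1_OB and siDNMT1, 5 were higher (Igf1, Igfbp2, Igfbp4, Igfbp5 and Pappa2), against 6.83%, and 0 were lower, against 2.71%. Because the genes were chosen with these values known, nothing is read from these shares. Pappa stood nearest inside the limit, at 1.04 between OB and control, and Igfbp4 nearest outside it, at −0.96 between siDNMT1_OB and OB. The median log2 fold change over the 10 genes was 0.12, −0.31, 0.69 and 1.01 in these comparisons in the order given. That of all genes compared lay between −0.0014 and 0.0129. The 10 include Igfbp6, which was not among the genes compared. Without Igfbp6, the middle value was that of Pappa between siDNMT1 and control (0.28), siDNMT1_OB and OB (0.03), and OB and control (1.04). Between siDNMT1_OB and siDNMT1 it was that of Igfbp4 (1.23).

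**Figure D4:**
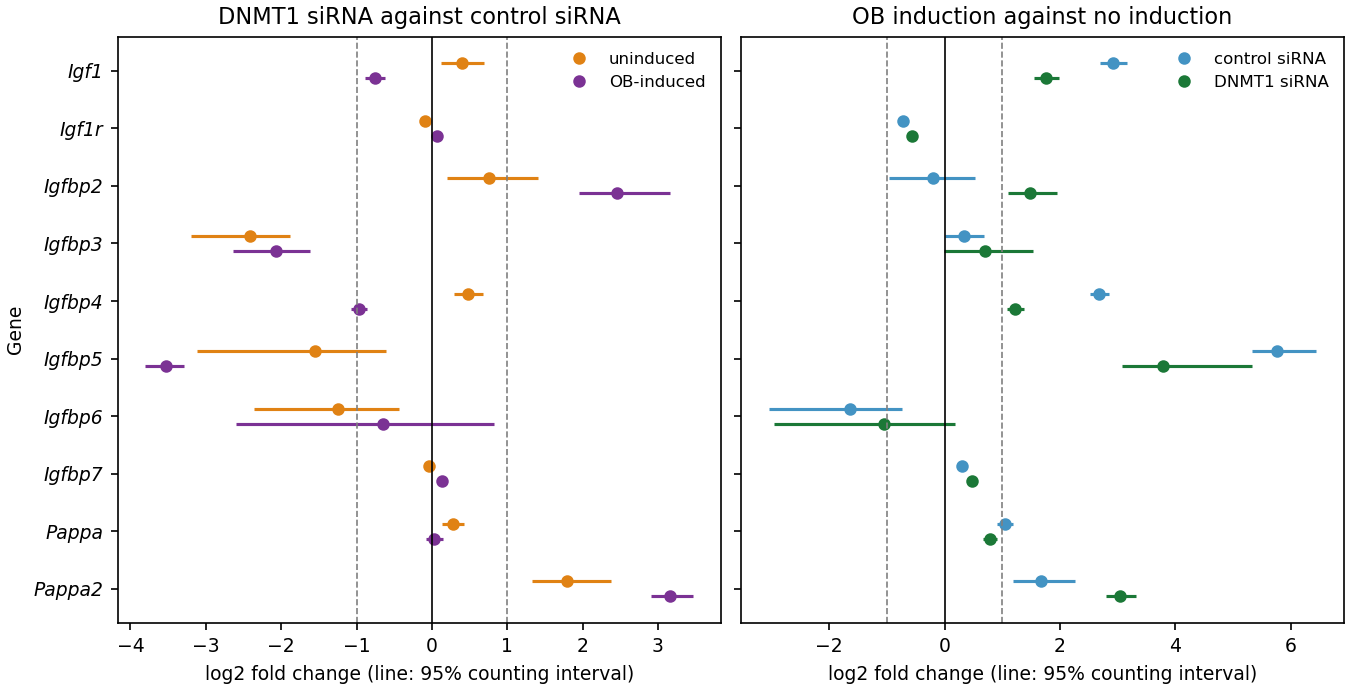
Log2 fold change of each gene with DNMT1 siRNA (left) and with OB induction (right), with 95% counting intervals as lines, a solid line at 0 and dashed lines at −1 and 1. Igfbp3, Igfbp5 and Pappa2 lie past −1 or 1 on the left with and without induction, and Igfbp5 lies furthest right with induction, at 5.76 and 3.80.

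The change with DNMT1 siRNA was set side by side in uninduced and induced cells, a difference that could not be tested with 1 library per group. Induced minus uninduced, it was −1.97 for Igfbp5 (−2.92 to −0.61), 1.69 for Igfbp2 (0.92 to 2.54) and 1.37 for Pappa2 (0.77 to 1.91), each a larger change with induction. It was −1.45 for Igfbp4 (−1.67 to −1.24) and −1.16 for Igf1 (−1.47 to −0.86), the members whose change had opposite signs with both intervals clear of 0. Igf1r and Igfbp7 also had opposite signs, at changes of at most 0.14 in size, and the interval of 1 of the 2 changes of each included 0. Igfbp3 gave 0.35, with an interval (−0.40 to 1.19) that included 0. Dnmt1 itself differed by 1.13 between these comparisons, and its part in these values was not tested.

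Genes with the most similar profile over the 4 libraries were sought among all 13233 by the Euclidean distance between log2 CPM values, each gene centred on its own mean. Nearest to Igfbp5 were Aspg, an asparaginase gene (distance 1.10), Pi15, a peptidase inhibitor gene (1.63), and Lbp, the lipopolysaccharide binding protein gene (1.69). Lbp, the most abundant of them, had 26, 15, 1504 and 592 counts in control, siDNMT1, OB and siDNMT1_OB. Nearest to Pappa2 were Cacna1h, a T-type calcium channel gene (0.48), Cnn1, the smooth muscle calponin gene (0.68), and H19, a noncoding RNA gene (0.68). All of these had 2 counts in control and 107 to 177 in siDNMT1_OB, with 9 to 17 in the single conditions. A distance over 4 libraries, with counts as low as these, is a weak description.

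Other genes of the pathway were counted in the same way. Of 45 other IGF pathway genes, 33 were compared, and 0 were past a log2 fold change of 1 with DNMT1 siRNA, either without or with induction, while 1.97% to 2.36% of all genes compared were higher and 1.37% lower. Irs1 and Irs2, the genes of receptor adaptor proteins, which were named after their values were seen, had log2 fold changes of 0.87 and 0.94 without induction and 0.70 and 0.75 with it. Between OB and control 7 were higher and 1 was lower, against 10.6% and 7.1% of all genes compared, and between siDNMT1_OB and siDNMT1 5 were higher and 0 were lower, against 6.83% and 2.71%. Among proteases able to cleave binding proteins, Adam12 was higher in both (1.44 and 1.26), as was Htra3 (1.40 and 1.11), while Mmp2 (1.21) and Mmp14 (1.16) were past the limit with control siRNA and Ctsd (1.27) with DNMT1 siRNA. Among signalling genes, Pik3r1, a regulatory subunit of PI3-kinase, was higher in both (1.96 and 1.82), as was the receptor-binding adaptor Grb14 (1.93 and 1.33), whereas Pik3cb, a catalytic subunit, was lower with control siRNA (−1.12). Socs2, a feedback inhibitor of growth hormone signalling, was higher with control siRNA (1.55).

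The other main ligand, receptors and pappalysin inhibitors were followed as well. Igf2, the other ligand, had 0 counts in control and 2 in siDNMT1, and 1 in OB and 34 in siDNMT1_OB. It was thus detected above the floor in 1 library, at least 9.58-fold higher in siDNMT1_OB than the floor of 3 counts in OB. Igf2 was not among the pathway genes compared, since its mean was below 1 CPM. Igf2r, which clears IGF2, had 8188, 8238, 6539 and 7676 counts, with log2 fold changes between −0.16 and 0.09. The insulin receptor gene Insr had 1550, 1562, 1816 and 1859 counts, with fold changes between −0.21 and 0.49. Stanniocalcins inhibit pappalysins, and Stc1 had 0 counts in control and 2 in siDNMT1, against 24 in OB and 13 in siDNMT1_OB, at least 9.59-fold higher in OB than the floor of 3 counts in control. Stc2 had 9, 18, 1 and 0 counts, and both induced libraries were at or under the floor. Prg2, which encodes another pappalysin inhibitor, had 6 counts in control and at most 1 elsewhere, and Insrr, an insulin receptor-related gene, had at most 2 in any library.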

How the data were processed

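Per the study's methods, poly(A) libraries (TruSeq v.2) were sequenced from both ends on a HiSeq instrument. The submitters' processing notes name Trimmomatic, HISAT2, featureCounts and mm10, with versions not given in the sources used here. The authors deposited 1 table of raw counts per gene in whole numbers, with gene positions and lengths. Strand use was not stated, and 2 DNMT1 siRNAs are described without saying which was used here. No column of other samples was present (0).

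TMM factors (0.991 to 1.01) were computed from the deposited counts with edgeR 4.0.16 in R 4.3.3, over the genes whose mean CPM reached 1. Log2 fold changes used a prior count of 2, and a gene counted as changed at 1 or more in size, which is the size limit of the study without its p-value condition. Intervals are exact 95% intervals of the counts, or normal approximations on the log scale for differences of fold changes and changes of ratios. The prior count enters the fold changes but not the intervals, so that at few counts a fold change lies off the centre of its interval. The fold change and its interval were tested on counts simulated for control and siDNMT1 with counting error only. Ratios and differences between fold changes were not tested in this way. With 1 library per group no test was run. Levels of different genes were compared per kilobase of the deposited exon length, which need not be the length of the transcripts expressed. Total count, RLE and upper quartile scaling, prior counts of 0.5 and 5, no filter and a mean CPM of at least 5 were tried.

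The members, the gene lists and the comparisons were chosen with earlier results of these data known. Named genes were the 10 members, Dnmt1, pathway genes past the threshold in any comparison, Igf2, Igf2r, Insr, Stc1 and Stc2, and the 3 genes nearest in profile to Igfbp5 and to Pappa2. Irs1, Irs2, Prg2, Insrr and the osteoblast markers named were added after their values were seen. The letters searched in the upstream windows were chosen after the counts were seen.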

Additional observations from a re-analysis of the deposited data

Results flagged for a closer look

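For 2 of the 9 members compared (22.2%), the change with DNMT1 siRNA had opposite directions in uninduced and induced cells. Their counting intervals were clear of 0 in both under every scaling tried. The share among the 13233 genes compared was 10.2%. Igf1 was higher without induction (0.41) and lower with it (−0.75), a difference of −1.16 on the log2 scale. Igfbp4 was likewise higher without induction (0.49) and lower with it (−0.96), a difference of −1.45. Each direction rests on 1 library per group, and the difference was not tested. Dnmt1 was lower with DNMT1 siRNA without induction (−1.01) and not with it (0.13), and its part in these differences was not tested.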

How the results depend on the processing

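Of 300 values of the members under an alternative, 298 stayed on the same side of the threshold, 2 fell short of it and 0 changed direction. Between OB and control, Pappa had 1.04, and 0.998 with TMM factors computed over all genes, an alternative added after seeing the data. Between siDNMT1_OB and siDNMT1, Igfbp6 had −1.05 and, with a prior count of 5, −0.82. Another scaling moved no value by more than 0.049 and another prior count moved none by more than 0.349, on the log2 scale. With a mean CPM of at least 5, the comparison of siDNMT1_OB with OB counted 2 members as changed instead of 4, since Igfbp2 and Igfbp3 left the genes compared, and for the same reason siDNMT1 against control counted 2 instead of 3 (without Igfbp3) and siDNMT1_OB against siDNMT1 4 instead of 5 (without Igfbp2). With no filter, Igfbp6 was added as lower, which gave 4 members instead of 3 between siDNMT1 and control, 6 instead of 5 between OB and control and 6 instead of 5 between siDNMT1_OB and siDNMT1. Without the length correction, the ratio of Igfbp5 to Pappa2 was 0.691 in control and 0.0563 in siDNMT1, against 12.3 in OB and 0.116 in siDNMT1_OB. Igfbp5 in siDNMT1 (8 counts) and Igfbp6 are limited by depth. Replicates could not be paired, because each group had 1 library and the labels give no replicate numbers to pair by. Leaving out a library would have left its group with none. A fit of siRNA and induction as additive terms, which would take the difference between the siRNA effects as its error, was not run.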
